A study of Homo sapiens with 8 samples.

Results

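The expression of LGR4 and of 9 other genes of the Wnt receptor complex and its feedback was followed in macrophage-like cells exposed to epirubicin, lipopolysaccharide (LPS), or both. The 10 genes were FZD1, FZD2, FZD5, FZD7, LRP5, LRP6, ZNRF3, RNF43, AXIN2 and LGR4, picked by gene symbol out of 17687 genes with a probe set on the array. All 10 were found, each with 1 probe set. LGR4 was picked for its low level in cells given epirubicin and LPS compared with LPS alone. Its values in that comparison, and in the comparisons that share those arrays, are therefore given as a description without a test.

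THP-1, a human monocytic leukaemia cell line, had been turned into macrophage-like cells with the phorbol ester PMA in every group, so the untreated cells carried PMA too. The groups were EPI_LPS, EPI, LPS and untreated cells. By the methods, EPI_LPS cells had 24 h of epirubicin at 0.25 µg/mL first and LPS at 100 ng/mL for 3 h after it. EPI cells had the same epirubicin exposure alone, and LPS cells the same LPS exposure alone. Epirubicin is an anthracycline that inserts into DNA, and LPS is a bacterial membrane component sensed by TLR4. Each group had 2 Clariom S HT arrays of this 1 cell line, and nothing in the labels or methods says whether the duplicates were separate cultures, so p-values reflect no more than how far these arrays scatter, a scatter that may be technical.

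In the Wnt pathway, secreted Wnt proteins bind a Frizzled receptor (FZD) together with a co-receptor, LRP5 or LRP6, which stops the breakdown of β-catenin and lets it act with TCF/LEF factors in the nucleus. The ligases ZNRF3 and RNF43 clear Frizzled and LRP proteins from the cell surface. R-spondins bind LGR4 and these ligases and so keep Wnt receptors at the surface, while AXIN2 is a feedback target that helps to break β-catenin down. LGR4 is also known outside the Wnt pathway, and studies in mouse macrophages have linked it to the response to LPS.

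The promoters of LGR4 and FZD1 are shown because LGR4 had the largest single difference between groups among the 10 genes, while FZD1, measured well above the negative control rows of the array, passed the test in no comparison. RefSeq promoters (GRCh38.p14) were matched for 5 of the 10 genes (LGR4, FZD1, FZD5, LRP5 and RNF43). Each sequence gives the 250 bases before the annotated start, on the strand of the gene, with CCAAT boxes (CCAAT, or ATTGG where the box lies on the other strand) and the octamer ATTTGCAT in capitals. The LGR4 window lies on the minus strand at chr11:27472791-27473040 and the FZD1 window on the plus strand at chr7:91264183-91264432.
LGR4: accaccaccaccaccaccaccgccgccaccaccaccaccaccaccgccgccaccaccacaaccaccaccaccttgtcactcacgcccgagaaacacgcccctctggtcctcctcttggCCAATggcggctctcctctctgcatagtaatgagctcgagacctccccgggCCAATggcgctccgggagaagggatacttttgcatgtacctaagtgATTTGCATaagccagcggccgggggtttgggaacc
FZD1: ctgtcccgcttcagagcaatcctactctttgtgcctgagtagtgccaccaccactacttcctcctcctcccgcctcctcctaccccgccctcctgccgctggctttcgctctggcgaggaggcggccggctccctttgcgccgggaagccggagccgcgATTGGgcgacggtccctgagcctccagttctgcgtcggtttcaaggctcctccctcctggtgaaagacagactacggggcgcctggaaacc

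The LGR4 window held 2 CCAAT boxes, at 132 to 128 and 81 to 77 bases before the start, and 1 octamer at 35 to 28 bases before it. The FZD1 window held 1 CCAAT box on the other strand, at 91 to 87 bases before the start, and no octamer. Searched on both strands of 35114 promoter windows of this length, CCAAT was found in 32% of them (at least 2 matches in 9.53%) and the octamer in 1.63%. Neither window held the letters TGANTCA of AP-1 sites, which 6.57% of all windows held. Likewise neither held the TCF/LEF letters CTTTGA (11.2% of windows), the TATA box with the letters TATAAA (10.7%), or the NF-kB consensus (9.96%). These matches describe letters in a window, and no binding was measured.

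Array medians lay between 5.78 and 5.88 on the deposited log2 scale, and duplicates correlated at 0.986 to 0.987 over 20893 probe sets, which are not independent of each other. Of 10 macrophage markers, 8 reached a group mean of at least 6, while MRC1 and MARCO did not. Of 7 measured markers of undifferentiated monocytic leukaemia cells, 4 reached it too (AZU1, PRTN3, CTSG and MYB), with AZU1 at 14.05 or more in each group. Of 5 measured epithelial markers none reached it, against 1 of 5 fibroblast markers (COL1A2) and 2 of 5 lymphocyte markers (CD79A and NKG7). The mean of the macrophage markers on single arrays was 10.7 to 10.8 in EPI_LPS, 11.1 in both LPS arrays, 10.6 to 11.0 in EPI and 10.9 to 11.1 in untreated cells. The mean of the 5 fibroblast markers was 4.81 to 5.04 in EPI_LPS, 5.02 to 5.34 in LPS, 5.24 to 5.30 in EPI and 5.38 to 5.52 in untreated cells. The mean of the 7 measured markers of undifferentiated monocytic leukaemia cells was 7.64 to 7.67 in EPI_LPS, 8.08 to 8.18 in LPS, 7.83 to 7.95 in EPI and 7.85 to 8.03 in untreated cells. The lymphocyte mean was 4.96 to 5.27 in EPI_LPS, 5.38 to 5.45 in LPS, 4.88 to 4.99 in EPI and 4.82 to 4.86 in untreated cells, and the epithelial mean was 4.00 to 4.03 in EPI_LPS, 3.82 to 3.89 in LPS, 3.42 to 3.91 in EPI and 3.54 to 3.81 in untreated cells. In EPI_LPS against LPS the macrophage, undifferentiated and lymphocyte means were lower on each array and the epithelial mean was higher. Single macrophage markers went both ways, with CD14 at 11.04 and 11.08 in EPI_LPS and 12.88 and 13.26 in LPS, and CSF1R at 15.42 and 15.32 in EPI_LPS and 14.98 and 15.06 in LPS. The part of these markers in the results was not tested.

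The array carries 612 negative control rows, whose values over all arrays had a median of 3.88 and a 90th percentile of 6.12. The mean over all arrays of LGR4, FZD1, FZD7, LRP5 and LRP6 lay above 96.1% or more of these rows, and that of FZD5 above 89.9%. For LGR4 and FZD7 this mean was raised by the LPS arrays, since LGR4 averaged 5.97 in EPI_LPS and 5.92 in EPI, and FZD7 averaged 5.98 in EPI and 5.62 in untreated cells. FZD2 and ZNRF3 lay above 75.8% and 75.7% of these rows, but all their arrays lay below 6.12, so changes of either gene may also have gone undetected. The values of AXIN2 (above 38.4%) and RNF43 (above 11.8%) lay within the bulk of the negative control rows, so changes of these 2 genes below that level were not detectable. A probe set was called higher or lower where it met the threshold of the methods, with an unadjusted limma p not above 0.01 and at least a 2-fold change. Adjusted p-values cover all 20893 probe sets.

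**Figure D1:**
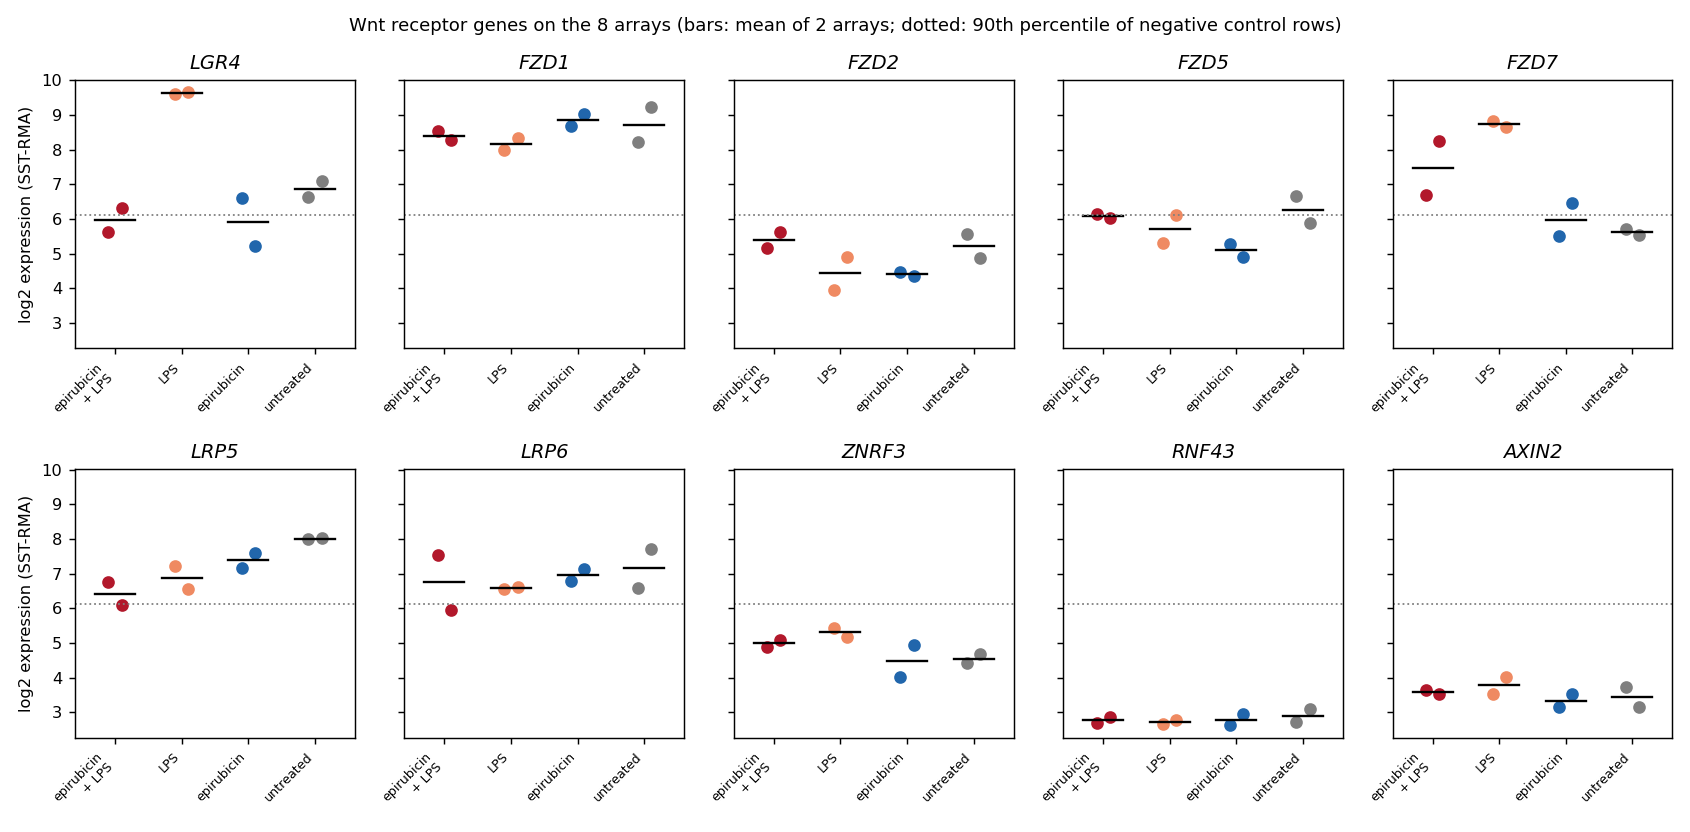
The plot shows the log2 expression of the 10 genes on each of the 8 arrays by group, with a bar at the mean of the 2 arrays and a dotted line at 6.12, the 90th percentile of the negative control rows. LGR4 was at 9.60 and 9.66 in LPS and at 7.10 or below on the other 6 arrays. FZD2, ZNRF3, RNF43 and AXIN2 stayed below the dotted line throughout.

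LGR4 (probe set TC1100010400.hg.1), the receptor for R-spondins, was high only on the LPS arrays. Its log2 value was 5.62 and 6.33 in EPI_LPS, against 9.60 and 9.66 in LPS, and it was 6.60 and 5.23 in EPI, against 6.64 and 7.10 in untreated cells. The LPS arrays lay far above all others, the untreated arrays came next, and the EPI_LPS and EPI arrays overlapped each other. Group means were 5.97 ± 0.50 in EPI_LPS, 5.92 ± 0.97 in EPI, 9.63 ± 0.04 in LPS and 6.87 ± 0.32 in untreated cells (SD, n = 2 each). EPI_LPS was 3.66 lower than LPS on the log2 scale. With EPI_LPS arrays raised to 6.12 where they lay below it, the EPI_LPS mean was 10.6-fold lower. This is a lower bound with regard to background only, and does not cover the scatter of the 2 arrays. The measured ratio is not given as an exact fold because this group lay near background. LPS alone was 2.76 above untreated cells (SE 0.45), a 6.79-fold difference. With epirubicin present, EPI_LPS differed from EPI by 0.05 (SE 0.45), a difference between 2 means near background.

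In the comparison of EPI with untreated cells, whose arrays were not used to pick LGR4, the log2 fold change of LGR4 was −0.95 (SE 0.45). Both EPI arrays lay below both untreated arrays, but the EPI duplicates were 1.37 apart, and the change did not pass the test (limma, unadjusted p = 0.0670, adjusted p = 0.511). Leaving out single arrays gave values between −1.64 (without EPI duplicate 1, past the threshold) and −0.27 (without EPI duplicate 2). The epirubicin difference was 2.71 more negative in the presence of LPS than in its absence (SE 0.64), given here as a description. The LGR4 means in EPI_LPS and EPI lay below 6.12, the 90th percentile of the negative control rows, so LGR4 was not clearly above background in either group.

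The LGR4 response to LPS was set beside that of all probe sets called higher with LPS, LGR4 included. Under this rule 1132 probe sets were higher in LPS than in untreated cells, and 811 of them (71.6%) were also called higher in EPI_LPS than in EPI. Their median log2 response was 1.70 with epirubicin and 1.76 without it. The second median is raised by the choice of probe sets on the values without epirubicin, so the 2 are not compared. With epirubicin, 46 of the 1132 (LGR4 included) had a response at or below that of LGR4. LGR4 itself, with 0.05 beside 2.76, is placed among them as a description, since its low value in EPI_LPS was the reason it was picked and both of its means with epirubicin lay near the negative control rows.

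**Figure D2:**
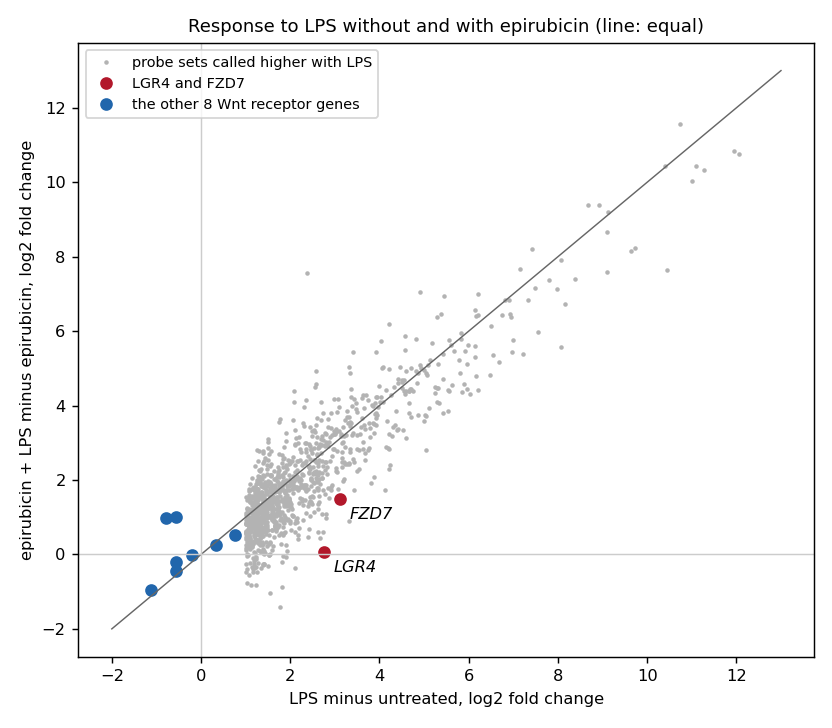
Each grey point is 1 of 1132 probe sets called higher in LPS than in untreated cells, with the log2 response to LPS without epirubicin on the horizontal axis and with epirubicin on the vertical axis, and the 10 genes are drawn in red (LGR4, FZD7) and blue (the other 8). LGR4 lies at 2.76 and 0.05, and FZD7 at 3.12 and 1.48, both below the line of equal responses.

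Across the 9 genes other than LGR4, epirubicin without LPS gave 0 calls against 2.28% of all 20893 probe sets, with 1 of the 9 at an unadjusted limma p below 0.05 (10.3% of all). Epirubicin in the presence of LPS gave 0 calls among the 9 against 2.73% of all, with 2 of the 9 below 0.05 (10.9% of all). LPS without epirubicin gave 1 higher (FZD7) and 1 lower (LRP5) of the 9, against 5.42% of all probe sets called higher, 6.31% called lower and 11.7% in either direction, with 3 of the 9 below 0.05 (24% of all). LPS in the presence of epirubicin gave 0 of the 9 against 12.2% of all, with 4 below 0.05 (25.4% of all). The counts of so few genes are given as a description and were not tested against these shares.

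The arrays of the 2 groups did not overlap for 3 of the 9 in EPI against untreated cells (41.5% of all probe sets), 3 of the 9 in EPI_LPS against LPS (41.7%), 3 of the 9 in LPS against untreated cells (52.9%) and 6 of the 9 in EPI_LPS against EPI (52.4%). The median log2 fold change of the 9 was −0.12, 0.06, −0.55 and 0.25 in these comparisons, beside medians of −0.00, 0.01, −0.05 and −0.03 over all probe sets. For the difference between the epirubicin effects with and without LPS, called at an adjusted limma p of 0.05 or below, 0 of the 9 passed and 3 had an unadjusted p below 0.05 (7.38% of all), while 1 probe set in all was called (0.00479%). Comparisons that share a group share its arrays, so the 4 sets of values are not independent.

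Of the 4 Frizzled receptors, FZD7 rose with LPS, while FZD1, FZD2 and FZD5 passed the test in no comparison. FZD7 (TC0200010473.hg.1), a Frizzled known for its role in stem and tumour cells, was at 6.68 and 8.24 in EPI_LPS, 8.82 and 8.65 in LPS, 5.50 and 6.46 in EPI, and 5.71 and 5.53 in untreated cells. The LPS arrays were the highest, the EPI_LPS arrays came next but lay 1.55 apart, and the EPI and untreated arrays overlapped. FZD7 rose by 3.12 on the log2 scale in LPS over untreated cells (SE 0.50, limma adjusted p = 0.00544). Both untreated arrays lay below 6.12, and set at that value they gave a 6.13-fold rise, a lower bound with regard to background but not to scatter. This call was kept in all 15 alternative settings, with values from 3.03 to 3.21.

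With epirubicin present, the difference of FZD7 between EPI_LPS and EPI was 1.48 (SE 0.50, limma adjusted p = 0.104), which did not pass, though both EPI_LPS arrays lay above both EPI arrays. The difference passed without EPI_LPS duplicate 1, at 2.25 (limma, adjusted p = 0.0229), and in limma with a mean-dependent, robust prior variance (adjusted p = 0.0325). FZD7 was −1.27 (SE 0.50) in EPI_LPS relative to LPS, with both EPI_LPS arrays below both LPS arrays, and did not pass (limma, unadjusted p = 0.0338, adjusted p = 0.409). Without EPI_LPS duplicate 2 the value was −2.05 and passed (adjusted p = 0.294). FZD7 thus differed from LGR4 in that 1 of its EPI_LPS arrays stayed near the LPS arrays. The difference between its epirubicin effects with and without LPS was −1.64 (SE 0.71, limma adjusted p = 0.672).

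FZD1 (TC0700008306.hg.1), whose promoter is printed above, had values of 8.53 and 8.28 in EPI_LPS, 7.97 and 8.32 in LPS, 8.69 and 9.02 in EPI, and 8.21 and 9.21 in untreated cells. Its 4 group means ranged from 8.15 ± 0.25 in LPS to 8.85 ± 0.24 in EPI (SD, n = 2). Its log2 fold changes lay between −0.56 (LPS minus untreated) and 0.25 (EPI_LPS minus LPS), each with an SE of 0.35. The duplicates of the untreated group were themselves 1.01 apart.

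FZD2 (TC1700008005.hg.1) passed the test in no comparison, and its 4 group means lay below 6.12. It was at 5.16 and 5.61 in EPI_LPS, against 3.95 and 4.90 in LPS, and at 4.46 and 4.36 in EPI, against 5.55 and 4.87 in untreated cells. Both pairs were apart, with EPI_LPS above LPS by 0.96 (SE 0.38, limma adjusted p = 0.408) and EPI below untreated cells by a log2 fold change of −0.80 (SE 0.38, adjusted p = 0.509). The difference between these effects was 1.76 (SE 0.53) and did not pass after adjustment (limma, unadjusted p = 0.0103, adjusted p = 0.596). Without LPS duplicate 2, EPI_LPS was above LPS by 1.43 and passed the threshold (limma, adjusted p = 0.398).

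FZD5 (TC0200015556.hg.1), a Frizzled receptor studied with WNT5A in human macrophages, had values of 6.15 and 6.02 in EPI_LPS, 5.31 and 6.12 in LPS, 5.28 and 4.91 in EPI, and 6.65 and 5.88 in untreated cells. The EPI arrays were the lowest. Its means in EPI_LPS (6.08), EPI (5.09) and LPS (5.71) lay below 6.12, and that in untreated cells (6.26) just above it, so its differences lay near background. FZD5 was −1.17 in EPI relative to untreated cells (SE 0.36), just outside the threshold (limma, unadjusted p = 0.0114, adjusted p = 0.335), and passed it without untreated duplicate 2 (−1.56) or without either LPS array. It was 0.99 higher in EPI_LPS than in EPI (SE 0.36, adjusted p = 0.127), with no overlap of the arrays. Between EPI_LPS and LPS the difference was 0.37 (adjusted p = 0.764). The difference of its epirubicin effects, 1.55 (SE 0.51), did not pass (adjusted p = 0.605).

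The co-receptor LRP5 was highest in untreated cells and fell with LPS, while LRP6 passed the test in no comparison. LRP5 (TC1100008181.hg.1) had values of 6.76 and 6.09 in EPI_LPS, 7.21 and 6.55 in LPS, 7.17 and 7.61 in EPI, and 7.99 and 8.03 in untreated cells. The untreated arrays lay above all 6 others, and the EPI_LPS and LPS arrays overlapped. LRP5 fell by 1.13 in LPS relative to untreated cells (SE 0.33), a 2.19-fold change (limma, unadjusted p = 0.00927, adjusted p = 0.0687). This call was lost in 9 of 15 alternative settings, and the value ranged from −1.46 to −0.79 over all 15. It was lost without either untreated array, without either EPI array and without LPS duplicate 2, where the value was −0.79. EPI_LPS was −0.96 relative to EPI (SE 0.33, adjusted p = 0.110), again with no overlap. The change in EPI relative to untreated cells was −0.62 (SE 0.33, adjusted p = 0.574), and in EPI_LPS relative to LPS it was −0.46 (adjusted p = 0.672).

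LRP6 (TC1200009959.hg.1), the paralogous co-receptor, was at 7.54 and 5.96 in EPI_LPS, 6.56 and 6.63 in LPS, 6.78 and 7.13 in EPI, and 6.60 and 7.71 in untreated cells. The EPI_LPS duplicates spanned 1.59 and took in both LPS arrays. Its log2 fold changes lay between −0.56 (LPS minus untreated, SE 0.53, limma adjusted p = 0.601) and 0.16 (EPI_LPS minus LPS, adjusted p = 0.948).

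ZNRF3 (TC2200009246.hg.1), the ligase that removes Wnt receptors, was at 4.89 and 5.10 in EPI_LPS, 5.44 and 5.18 in LPS, 4.03 and 4.94 in EPI, and 4.41 and 4.69 in untreated cells. Both LPS arrays lay above both untreated arrays, by 0.76 on average (SE 0.33), a difference that did not pass (limma, adjusted p = 0.208). EPI_LPS differed from LPS by −0.31 (adjusted p = 0.785) and from EPI by 0.51 (adjusted p = 0.394).

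The other ligase, RNF43 (TC1700012439.hg.1), stayed between 2.62 and 3.09 on all 8 arrays. AXIN2 (TC1700012457.hg.1), the feedback target often used to read out β-catenin activity, stayed between 3.15 and 4.02. For AXIN2 the log2 fold changes were −0.19 (EPI_LPS minus LPS), −0.11 (EPI minus untreated), 0.25 (EPI_LPS minus EPI) and 0.33 (LPS minus untreated), the last with an SE of 0.30 (limma, adjusted p = 0.582).

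**Figure D3:**
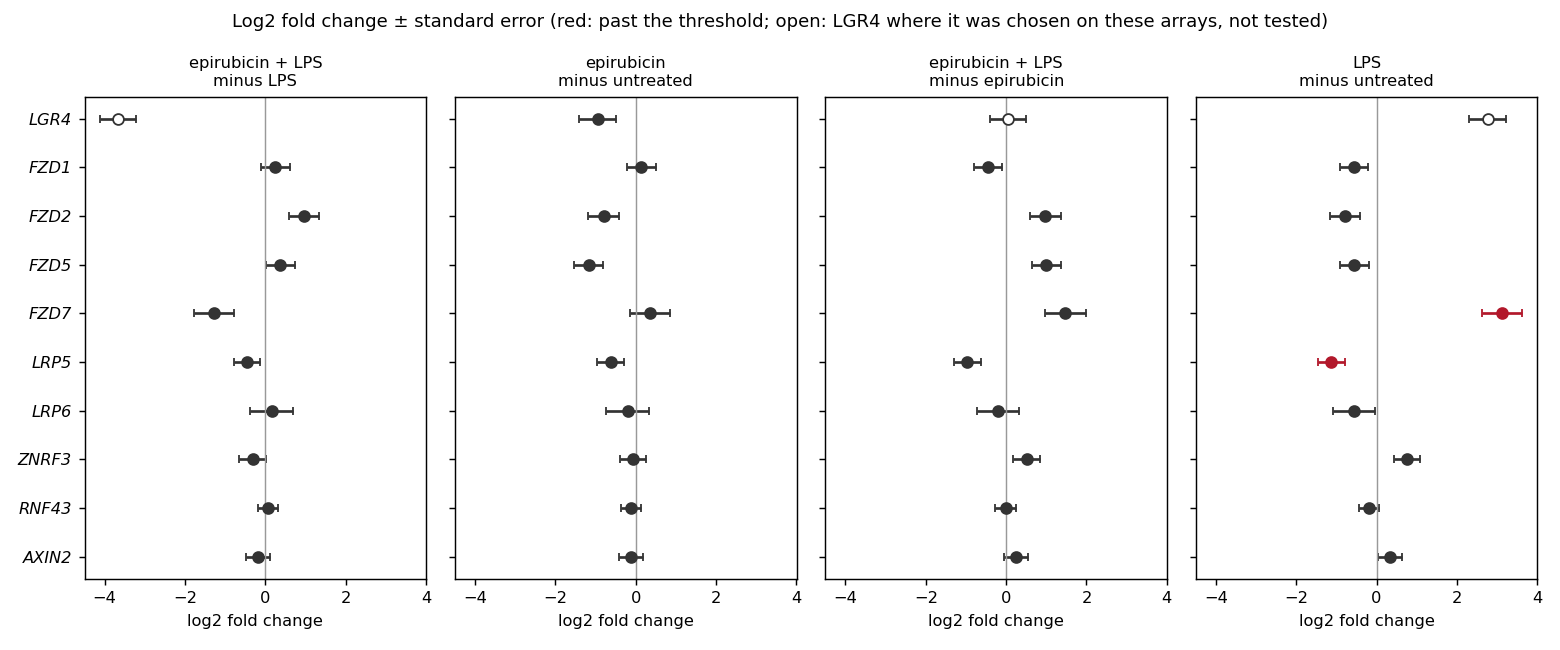
The plot gives the log2 fold change and its standard error for each of the 10 genes in 4 comparisons, in red where the threshold was passed and as open circles where LGR4 was not tested. FZD7 (3.12) and LRP5 (−1.13) are the red points, both in the comparison of LPS with untreated cells.

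Over the wider Wnt pathway, 84 further genes of 89 listed were measured, and 32 of them reached a group mean of at least 6. FZD8, WNT9B, PORCN, DVL1 and TCF7 had no probe set annotated with their symbol alone and were not analysed here, which does not show that the array lacks them. By limma, 0 of the 84 were called in EPI against untreated cells, with 8 at an unadjusted p below 0.05 (9.52%, against 10.3% of all probe sets), and 2 (2.38%, against 2.73% of all probe sets) were called higher in EPI_LPS than in LPS. LPS alone gave 7 higher and 4 lower than in untreated cells (13.1%, against 11.7% of all), with 19 at an unadjusted p below 0.05 (22.6%, against 24%). EPI_LPS gave 9 higher and 3 lower than EPI (14.3%, against 12.2% of all), with 23 below 0.05 (27.4%, against 25.4%). These shares lay near the background. For the difference between the epirubicin effects 0 of the 84 were called, with 9 below 0.05 (10.7%, against 7.38% of all). The median log2 fold change of the 84 was 0.04 in EPI against untreated cells, −0.00 in EPI_LPS against LPS, 0.11 in LPS against untreated cells and −0.02 in EPI_LPS against EPI.

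At the receptor level, the LGR4 paralogues LGR5 and LGR6 lay low. LGR5 was at 3.87 and 3.84 in EPI_LPS, 3.27 and 3.61 in LPS, 3.67 and 3.73 in EPI, and 4.76 and 4.18 in untreated cells. It fell by 1.03 in LPS relative to untreated cells (SE 0.27, limma adjusted p = 0.0460), at a level within the negative control rows, a call lost without untreated duplicate 1 or LPS duplicate 1. LGR6 ranged from 2.76 to 4.31 and was not called. The LPS arrays, the highest for LGR4, were the lowest for LGR5.

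Of the R-spondins, the ligands of LGR4, only RSPO1 reached a group mean of 6. RSPO1 was at 6.39 and 7.02 in EPI_LPS, 5.81 and 6.50 in LPS, 5.40 and 5.58 in EPI, and 5.23 and 5.32 in untreated cells. It rose by 1.21 in EPI_LPS over EPI (SE 0.32, limma adjusted p = 0.0436), a call lost without either EPI array or EPI_LPS duplicate 2 (lowest value 0.90). None of the 18 measured Wnt ligands reached a mean of 6 in any group. WNT10B rose by 1.64 in LPS over untreated cells (SE 0.39, adjusted p = 0.0300), with values of 5.47 and 5.64 in LPS and 3.78 and 4.05 in untreated cells, and lost the call without untreated duplicate 1 or LPS duplicate 2. WNT1 ranged from 4.05 to 5.81 and was not called. WLS, which carries Wnt proteins to the surface, ranged from 2.96 to 4.48 and was not called either.

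Among the alternative Wnt receptors, RYK was at 9.25 and 9.13 in EPI_LPS, 8.66 and 8.62 in LPS, 10.38 and 10.07 in EPI, and 10.28 and 9.76 in untreated cells. It fell by 1.38 with LPS alone (SE 0.26, limma adjusted p = 0.0116) and by 1.03 with LPS in the presence of epirubicin (adjusted p = 0.0386), the second call lost without EPI duplicate 1 or either EPI_LPS array. ROR2, a receptor tyrosine kinase for WNT5A, was at 7.10 and 8.24 in EPI_LPS, 6.33 and 5.57 in LPS, 6.45 and 5.49 in EPI, and 5.97 and 6.25 in untreated cells. The EPI_LPS arrays were its highest. The means of ROR2 in LPS (5.95) and EPI (5.97) lay below 6.12, near background. From these levels ROR2 rose by 1.71 in EPI_LPS over LPS (SE 0.47, limma adjusted p = 0.240) and by 1.70 over EPI (adjusted p = 0.0522). Each of these calls was kept in 4 of 8 settings that left out 1 array. The first was lost without either untreated array, LPS duplicate 2 or EPI_LPS duplicate 2 (lowest value 1.15), and the second without either untreated array, EPI duplicate 2 or EPI_LPS duplicate 2 (lowest value 1.13).

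Among the inhibitors, the DKK receptor KREMEN1 was at 9.03 and 7.63 in EPI_LPS, 7.36 and 8.31 in LPS, 7.18 and 7.52 in EPI, and 6.77 and 7.52 in untreated cells, and was not called. DKK2 fell by 1.52 with LPS alone and by 1.39 with LPS in the presence of epirubicin. Its means were 6.42 in untreated cells and 7.15 in EPI. In LPS (4.89) and EPI_LPS (5.76) they lay below 6.12, so the size of both falls depends on values near background. SFRP1 rose by 1.11 in EPI_LPS over EPI at a low level, a call kept in 1 of 8 settings without 1 array (the one without EPI_LPS duplicate 1). In the cytoplasmic relay, CSNK1E, a kinase that acts on Dishevelled, rose by 1.03 in EPI_LPS over EPI and by 1.54 in LPS over untreated cells, the first call lost without EPI duplicate 1 or EPI_LPS duplicate 2. DVL2, a Dishevelled protein, fell by 1.31 with LPS alone. CTNNB1, which encodes β-catenin, stayed between 15.30 and 15.58 on all arrays and was not called. Of the 14 measured genes of this relay, 13 reached a group mean of 6.

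In the nuclear complex, BCL9L, a β-catenin co-activator, was at 12.56 and 12.37 in EPI_LPS, 11.64 and 11.28 in LPS, 9.58 and 9.78 in EPI, and 9.65 and 10.14 in untreated cells. It rose by 2.79 in EPI_LPS over EPI (SE 0.27, limma adjusted p = 3.7e-04), by 1.56 in LPS over untreated cells (adjusted p = 0.00759) and by 1.01 in EPI_LPS over LPS (adjusted p = 0.234), the last lost without LPS duplicate 2 or either EPI_LPS array (lowest value 0.83). TCF7L2 rose by 1.22 and 1.24 with LPS, with and without epirubicin, while PYGO2 fell by 1.36 in EPI_LPS relative to EPI. TCF7L2 lost the first call without EPI duplicate 2 or EPI_LPS duplicate 1 and the second without untreated duplicate 2 or LPS duplicate 2, and PYGO2 lost its call without either EPI array or EPI_LPS duplicate 1 (smallest value −0.90). TLE3, a co-repressor, ranged from 13.4 to 14.5 and was not called. Of the target genes, CCND1 was at 10.78 and 10.54 in EPI_LPS, 9.91 and 9.47 in LPS, 5.45 and 7.32 in EPI, and 4.50 and 6.36 in untreated cells. CCND1 rose with LPS by 4.28 with epirubicin and 4.26 without it, CD44 by 4.40 and 4.66, and MYC by 2.15 and 1.56, in that order. Without single arrays the CCND1 rises ranged from 3.35 to 5.21 and from 3.33 to 5.19, and its untreated mean of 5.43 lay below 6.12. Of 17 measured target genes, 4 reached a group mean of 6, and 3 were called higher with LPS in each comparison. In these 3 genes, which are also targets of other pathways, the rise with LPS passed the test both with and without epirubicin. The other measured genes of the list were not called higher. Among them were AXIN2, LGR5 and ZNRF3, whose arrays all lay below 6.12, so a rise of these genes may have gone undetected. Whether the 3 rises involved β-catenin was not tested.

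Among 4278 genes with a highest group mean of at least 6 and a range of group means of at least 1, those whose values over the 8 arrays were most like those of LGR4 were PRR5-ARHGAP8 (Pearson r = 0.984), ACP2 (0.964), MMD (0.961), PIGR (0.948), MYLK (0.947), TAOK2 (0.947), SOS1 (0.947) and BST1 (0.939). The 8 arrays come from 4 groups, and the correlation follows the differences between groups, so it is a description only. PRR5-ARHGAP8 is a read-through gene that shares sequence with PRR5 and ARHGAP8, and its signal cannot be assigned to it alone. As genes chosen for following LGR4, all 8 lay lower in EPI_LPS than in LPS, which the choice entails. The log2 differences were from −2.75 (PIGR) to −1.02 (TAOK2). PIGR and MYLK reached the level of 6 only in LPS.

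PIGR, the receptor that carries polymeric immunoglobulins across epithelia, was at 4.85 and 4.94 in EPI_LPS, 8.21 and 7.09 in LPS, 5.12 and 4.11 in EPI, and 5.32 and 6.39 in untreated cells. MMD, a membrane protein that marks monocyte to macrophage differentiation, was at 7.85 and 8.39 in EPI_LPS, 9.82 and 9.72 in LPS, 7.77 and 7.36 in EPI, and 8.40 and 8.70 in untreated cells. In both, the untreated arrays lay next to the LPS arrays. BST1, an ectoenzyme and surface antigen of myeloid cells, was at 9.23 and 9.66 in EPI_LPS and 10.81 and 10.62 in LPS. Of the other members of the receptor group, the highest Pearson r with LGR4 was 0.64 for FZD7, with ZNRF3 at 0.47 and AXIN2 at 0.36, and the lowest was −0.52 for FZD1. The Spearman values were 0.31 for FZD7, 0.31 for ZNRF3, 0.36 for AXIN2 and −0.36 for FZD1, so the order of the first 3 changed with the measure.

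**Figure D4:**
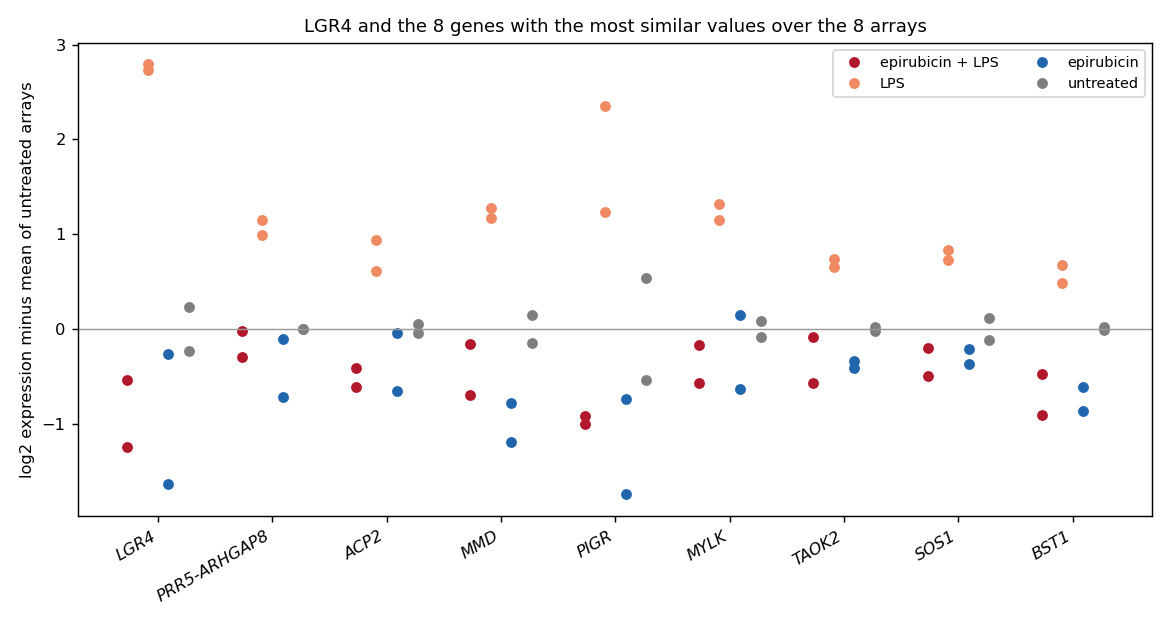
For LGR4 and the 8 genes most like it, each point is the log2 value on 1 array minus the mean of the 2 untreated arrays of that gene, coloured by group. The LPS points lie above the EPI_LPS points in each gene, as the choice by likeness to LGR4 entails.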

How the data were processed

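RNA of PMA-differentiated THP-1 cells was measured on 8 Clariom S HT arrays, 2 in each of 4 groups. The authors deposited 1 log2 value per probe set after joint normalization in Transcriptome Analysis Console (called RMA in the labels and SST-RMA in the methods), of a software version not given in the sources used here. The values were used as deposited, and array number limits the precision. Of 24351 rows, 20893 transcript-cluster probe sets were fitted in 1 limma model (version 3.58.1, R 4.3.3) with a mean per group, and Benjamini-Hochberg adjustment covered all of them. Control rows and the probe sets labelled as unmapped were left out. Of the 20893 fitted, 17705 had 1 gene symbol, and those with no symbol or several stayed in the fit and the adjustment. The model had 4 residual and 4.25 prior degrees of freedom.

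Where a gene had several probe sets, the brightest over all 8 arrays stood for it. The text names all 10 members, genes of the wider Wnt lists that were called or had the highest mean over all arrays in their list, and the 8 genes most like LGR4 and 4 least like it. Members and lists were chosen with earlier results of these data known. The scripts were tested on simulated data. Alternatives covered the prior variance, a replicate block, a filter on dim probe sets, quantile normalization, median centring, unmapped probe sets (chosen after seeing the data), a fit on 4 arrays, and leaving out each array. Figures were drawn with matplotlib 3.10.9 (Python 3.11.15).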

Additional observations from a re-analysis of the deposited data

Results flagged for a closer look

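The FZD2 arrays lay apart in opposite directions with epirubicin, without and with LPS, though no comparison passed the test. Both EPI arrays (4.46 and 4.36) lay below both untreated arrays (5.55 and 4.87), and both EPI_LPS arrays (5.16 and 5.61) lay above both LPS arrays (3.95 and 4.90). Of all probe sets, 41.5% did not overlap in the first of these comparisons and 41.7% in the second. For FZD2 the difference between the epirubicin effects was 1.76 on the log2 scale (SE 0.53), with an unadjusted limma p of 0.0103 and an adjusted p of 0.596. An unadjusted limma p below 0.05 for this difference was found in 7.38% of all probe sets. The mean level of FZD2 lay above 75.8% of the negative control rows, but all its arrays lay below 6.12, their 90th percentile.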

How the results depend on the processing

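LGR4 is counted only in EPI against untreated cells. Of the other 9 genes, 0 passed the threshold in EPI_LPS against LPS, and leaving out 1 array gave 0 to 1 (FZD2 at 1.43 without LPS duplicate 2, FZD7 at −2.05 without EPI_LPS duplicate 2). In EPI against untreated cells 0 of 10 passed, and leaving out 1 array gave 0 to 1 (LGR4 without EPI duplicate 1, FZD5 at −1.56 without untreated duplicate 2 and at −1.17 without either LPS array). In EPI_LPS against EPI 0 of 9 passed, with 1 (FZD7, adjusted p = 0.0325) under a mean-dependent and robust prior variance and 0 to 1 without 1 array. In LPS against untreated cells 2 of 9 passed, and 1 to 2 without 1 array, with 1 (FZD7) under the replicate block, quantile normalization, median centring or a fit on the 4 arrays compared. Without single arrays the log2 difference of LGR4 ranged from −4.01 to −3.31 in EPI_LPS against LPS, −1.64 to −0.27 in EPI against untreated cells, −0.63 to 0.74 in EPI_LPS against EPI and 2.53 to 2.99 in LPS against untreated cells, and the difference of its epirubicin effects from −3.39 to −2.02. For that difference over all probe sets, 1 was called in the fit reported, 45 under the mean-dependent prior, and 0 with a replicate block or without any 1 array. Same-numbered duplicates did not deviate together over the probe sets (correlations from −0.01 to 0.02). This shows no broad shift shared by duplicate number, but cannot tell whether same-numbered arrays were prepared together, which the labels and methods do not say. With the replicate block, the call of LRP5 in LPS against untreated cells was lost (−1.13, adjusted p = 0.0848) and no other call among the members changed. Quantile normalization, median centring and a fit on the 4 arrays compared also lost it, as did leaving out 1 of 5 arrays. Of the 8 genes most like LGR4, 4 stayed in the first 8 by Spearman correlation, and 5 to 8 without 1 array. Values of FZD2, ZNRF3, RNF43 and AXIN2 could not be given under the filter on dim probe sets, and a mean over several probe sets was not run because each gene had 1. With 2 arrays a group and several genes near the negative control rows, smaller changes were not detectable.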

Other observations

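The 4 genes whose values ran most opposite to LGR4 over the 8 arrays were ITPR3 (r = −0.979), MX2 (−0.977), ZNF383 (−0.963) and FAM117A (−0.963), given as a description. MX2, an interferon-induced antiviral GTPase, was at 10.46 and 10.33 in EPI_LPS, 9.51 and 9.19 in LPS, 10.09 and 10.52 in EPI, and 10.19 and 10.14 in untreated cells. ITPR3, an intracellular calcium channel, was at 6.73 and 6.26 in EPI_LPS, 5.21 and 4.85 in LPS, 6.07 and 6.85 in EPI, and 6.12 and 5.84 in untreated cells. As the choice by opposite pattern entails, the LPS arrays were the lowest in both genes, and the EPI_LPS and EPI arrays overlapped.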
